A study of Mus musculus with 3 samples.

Results

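Hyaluronan is a very long, unbranched sugar polymer of the extracellular matrix, and 7 mouse genes that make it, cut it or bind it were followed here in embryonic fibroblasts. They are the synthases Has1, Has2 and Has3, the hyaluronidases Hyal1 and Hyal2, the cell surface receptor Cd44 and the matrix proteoglycan Vcan. The genes were picked by name for their roles, and all 7 were among the 21782 genes of the count table. The cells were primary MEFs with the genotype WT, isolated at E12.5 and grown, with no treatment named, in medium with 20% serum, and they were harvested while cycling without synchronization. RNA selected for polyA tails was sequenced from 3 clones, with 1 library each, and whether each clone came from its own embryo is not given in the sources used here. All libraries belong to 1 condition, so the values below describe levels and their spread between clones. A test between clones compares 3 libraries, and a clone, its culture and its library cannot be told apart.

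Unlike most matrix sugars, hyaluronan is made at the plasma membrane, where a synthase joins the UDP forms of glucuronic acid and N-acetylglucosamine and pushes the growing chain out of the cell. HYAL2, anchored at the cell surface, cuts long chains into fragments, which HYAL1 in lysosomes shortens before exoglycosidases finish the digestion. CD44 holds the polymer at the cell surface and takes part in its uptake, and versican, the product of Vcan, binds it through a terminal domain to build the loose coat around fibroblasts. In mouse embryos HAS2 is the synthase that heart development depends on.

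The libraries held between 22594316 and 25261357 counts, so 1 count was worth between 0.0396 and 0.0443 counts per 1000000 counts (CPM, scaled to library size). As labelled, the cells held fibroblast transcripts, with 6 of 6 markers (Col1a1, Col1a2, Pdgfra, Pdgfrb, Thy1 and Dcn) present in every clone at a summed level from 39630 to 50420 CPM. Most of that sum came from Col1a1 (27710 CPM on average) and Col1a2 (14380 CPM), and Dcn was lowest of the 6 at 7.7 CPM. Macrophage markers were present too, and their summed levels in clones 1, 2 and 3 were 312, 1430 and 251 CPM, and all 7 of the 8 listed markers that could be read (Csf1r, Cd68, Lyz2, Mpeg1, C1qa, C1qb and Tyrobp) were highest in clone 2. Cd3e, Ncr1, Cpa3 and Elane, which mark lymphocytes and granulocytes, were at 0 in every clone. Ms4a1, also of that list, had 0, 2 and 0 counts in clones 1, 2 and 3. Endothelial markers summed to between 7.33 and 13.1 CPM, most of it from Kdr, and epithelial markers to between 3.34 and 6.73 CPM, most of it from Krt18. Cell division markers summed to 368, 723 and 609 CPM, and 6 of 6 were lowest in clone 1 and highest in clone 2. Their part in the differences between clones described below was not tested. In such bulk RNA, fewer cells of a type and less RNA per cell cannot be told apart.

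The synthases are related in sequence, which matters for reads of 86 bases that were allowed 2 mismatches. Along the translated coding sequences, HAS2 shared 388 of 546 aligned residues (71.1%) with HAS3 and 305 of 548 (55.7%) with HAS1. No stretch of 86 bases in one synthase transcript came closer to another synthase than 8 mismatches. The stretches printed here are of read length, lie inside coding exons and are shown because they are the places where the Has2 and Has1 transcripts and the Hyal2 and Hyal1 transcripts are most alike. They are written 5′ to 3′ in the sense of the transcript, from the GENCODE M21 transcripts on GRCm38. For Has2, capitals mark bases at which Has1 or Has3 differs, and for Has1 and Has3 they mark bases that differ from Has2, namely 18 and 15 of the 86. For Hyal2 and Hyal1 they mark the 29 bases that differ between both. The Has2 stretch is in exon 4 of 4 (chr15:56668182-56668267, minus strand), that of Has1 in exon 5 of 5 (chr17:17844150-17844235, minus strand) and that of Has3 in exon 4 of 4 (chr8:106878226-106878311, plus strand). The Hyal2 stretch is in exon 3 of 5 (chr9:107570529-107570614, plus strand) and that of Hyal1 in exon 2 of 4 (chr9:107577944-107578029, plus strand).
Has2: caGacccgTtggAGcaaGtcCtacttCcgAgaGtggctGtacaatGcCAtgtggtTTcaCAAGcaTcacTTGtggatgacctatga
Has1: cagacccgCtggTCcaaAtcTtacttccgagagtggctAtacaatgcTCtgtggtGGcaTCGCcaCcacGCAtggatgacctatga
Has3: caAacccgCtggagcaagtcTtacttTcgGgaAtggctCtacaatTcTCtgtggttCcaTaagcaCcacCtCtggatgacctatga
Hyal2: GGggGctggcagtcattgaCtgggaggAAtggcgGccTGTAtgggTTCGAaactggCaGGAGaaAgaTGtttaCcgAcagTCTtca
Hyal1: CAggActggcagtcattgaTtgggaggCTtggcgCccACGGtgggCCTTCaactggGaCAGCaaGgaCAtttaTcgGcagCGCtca

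Nearly all synthase transcripts in the MEFs were Has2. Has2 (ENSMUSG00000022367.7, chr15:56665627-56694539, minus strand, 4 exons) had 1682, 4516 and 3365 counts in clones 1, 2 and 3, or 67.7, 200.3 and 133 CPM. Its mean was 134 ± 66.3 CPM (SD, n = 3 clones). Has1 (ENSMUSG00000003665.7, chr17:17843323-17855205, minus strand, 5 exons) had 12, 17 and 9 counts in clones 1, 2 and 3, a mean of 0.531 ± 0.203 CPM. Has3 (ENSMUSG00000031910.14, chr8:106870242-106884566, plus strand, 4 exons) had 13, 6 and 14 counts, a mean of 0.448 ± 0.158 CPM. Has1 and Has3 were thus detected in every clone with more than 3 counts, the limit for a gene at 0, yet stayed below 1 CPM throughout.

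Of the summed counts of the 3 synthases, Has2 took 98.5% (95% Wilson interval 97.9 to 99.0), 99.5% (99.2 to 99.7) and 99.3% (99.0 to 99.6) in clones 1, 2 and 3. The mean share was 99.1 ± 0.511% (SD, n = 3 clones), and it was 99.3 ± 0.399% when the counts were divided by the length of annotated exon of each gene. The share was lowest in clone 1, whose interval did not overlap that of clone 2. Has1 took between 0.266% and 0.703% and Has3 between 0.132% and 0.762%. Intervals here and below hold counting error alone and leave out the spread between clones. PCR copies could not be told from separate molecules, so the intervals may be too narrow.

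Has2 also had the widest spread between clones of the 5 genes that were deep enough to test. A Pearson chi-square test, which sets the counts of a gene against library size, was run on the 12218 genes that reached 10 counts in each clone, and adjusted by the Benjamini-Hochberg method over all of them. For Has2 the chi-square was 1579, with an adjusted p too small to be held as a number. The level in clone 2 was 2.96 times that in clone 1 (95% counting interval 2.80 to 3.13). Of all tested genes, 351 (2.87%) had a larger ratio between their highest and lowest clone. Both clone 1 and clone 2 carried the size of the ratio, which was 1.50 between clones 2 and 3 (adjusted p = 9.63e-71) and 1.97 between clones 3 and 1 (adjusted p = 5.37e-116). The biological coefficient of variation (BCV) is the relative spread beyond counting noise that edgeR estimates, and it is drawn towards the trend over tested genes. It was 0.337 for Has2 against a median of 0.158 over tested genes, while the SD of Has2 was 49.6% of its mean CPM. The BCV of Has2 was 0.177 without clone 1 and 0.18 without clone 2, each against a median of 0.141. Has1 and Has3 fell below the minimum of 10 counts in at least 1 clone and were not tested. The ratio of highest to lowest clone was 2.12 for Has1 (0.892 to 5.39) and 2.08 for Has3 (0.752 to 6.61), and a difference between clones was not detectable at this depth. A small part of the Has2 exons (4.3%) is overlapped by the antisense gene Has2os on the other strand. For Has3, 5.5% of the exons is overlapped by the protein-coding gene Chtf8, also on the other strand. The strand setting of the counting is not given in the sources used here.

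**Figure D1:**
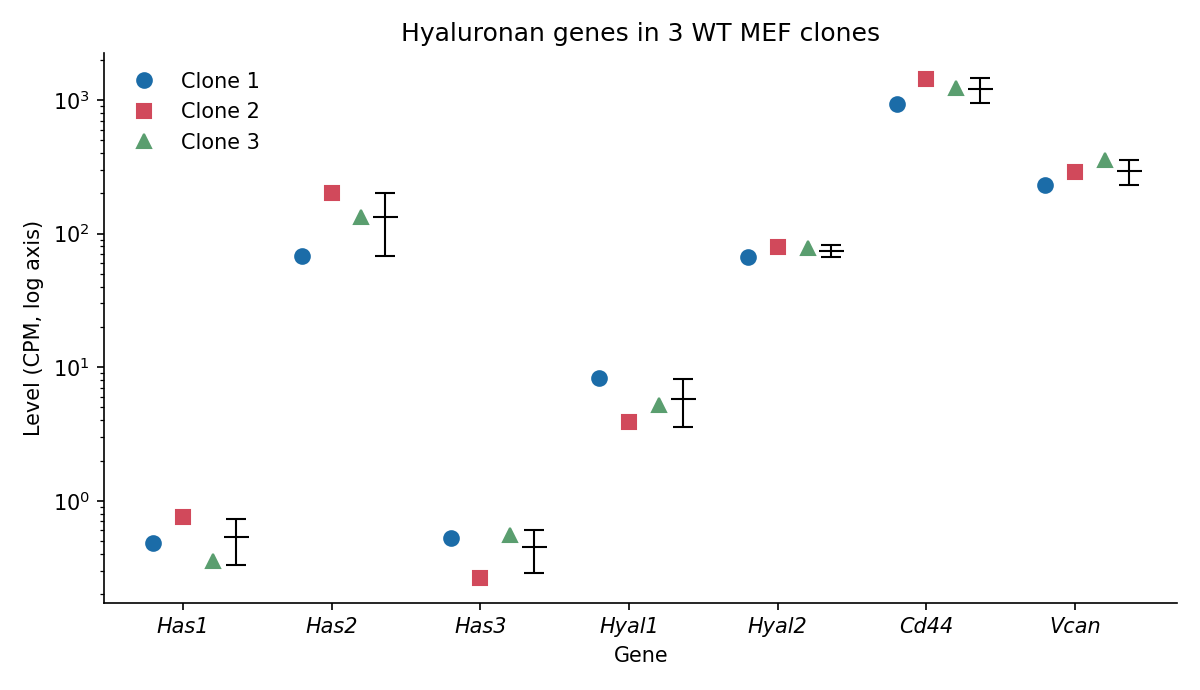
Level of each gene in CPM on a log axis, with 1 point per WT MEF clone (blue circles, red squares and green triangles for clones 1, 2 and 3) and, to the right of the points, the mean with its SD over the 3 clones. Has1 and Has3 lie below 1 CPM, Has2 spans 67.7 to 200.3 CPM, and Hyal1 is the gene with clone 1 at the top and clone 2 at the bottom.

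Between Hyal1 and Hyal2, most transcripts were Hyal2, which varied little between clones. Tmem2, described below, was left out of this comparison. Hyal2 (ENSMUSG00000010047.12, chr9:107567945-107572779, plus strand, 5 exons) had 1644, 1786 and 1970 counts in clones 1, 2 and 3, or 66.2, 79.2 and 78.0 CPM. Its mean was 74.5 ± 7.20 CPM (SD, n = 3 clones). Hyal1 (ENSMUSG00000010051.15, chr9:107576927-107581710, plus strand, 4 exons) had 207, 88 and 132 counts, or 8.33, 3.90 and 5.23 CPM, with a mean of 5.82 ± 2.27 CPM. Of the counts of both genes, Hyal2 therefore took 88.8% (95% Wilson interval 87.3 to 90.2), 95.3% (94.3 to 96.2) and 93.7% (92.6 to 94.7) in clones 1, 2 and 3. The mean share was 92.6 ± 3.38%, and 93.5 ± 3.01% per length of exon. Clone 1 stood apart with the lowest share, and the intervals of clones 2 and 3 overlapped.

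Hyal1 ran opposite to Has2 across the clones, being highest in clone 1 and lowest in clone 2. Its highest-to-lowest ratio was 2.13 (95% counting interval 1.66 to 2.77, chi-square 42.3, adjusted p = 2.94e-09). The ratio of Hyal2 was 1.20 (1.12 to 1.28, chi-square 34.0, adjusted p = 1.52e-07), with clone 1 lowest, and 58.9% of tested genes had a larger one. Neither call held without clone 1. Between clones 2 and 3 the ratio was 1.34 for Hyal1 (adjusted p = 0.0904) and 1.02 for Hyal2 (adjusted p = 0.773).

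The 2 hyaluronidase genes are close neighbours on chromosome 9, and the Hyal1 counts are less certain than those of Hyal2. In the annotation, 1920 bases (50.8%) of the Hyal1 exons also belong to Naa80, an acetyltransferase gene on the same strand that the count table lists as Nat6. Of all stretches of 86 bases in the Hyal1 transcript, 62.8% were also found, with up to 2 mismatches, in transcripts of other genes. The same search gave 0 for Hyal2, Has1, Has3, Cd44 and Vcan, with 1 transcript searched per gene. Nat6 had 514, 302 and 384 counts in clones 1, 2 and 3, thus highest in clone 1 and lowest in clone 2 as Hyal1 was (adjusted p = 3.1e-09). How reads in the shared exons were assigned was not tested. HYAL2 and HYAL1 were less alike than the synthases, with 178 of 429 aligned residues identical (41.5%).

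The transcripts of synthases and hyaluronidases were in different balance in each clone. Per length of exon, the summed level of Has1, Has2 and Has3 was 0.725, 1.89 and 1.26 times that of Hyal1 and Hyal2 in clones 1, 2 and 3. The mean ratio was 1.29 ± 0.584 (SD, n = 3 clones), and it was 0.993 without clone 2. Synthase transcripts were thus below those of Hyal1 and Hyal2 together in clone 1 and above them in clones 2 and 3. Tmem2, at 7.08, 9.40 and 9.39 CPM per kb in clones 1, 2 and 3, was left out of this ratio. The side of 1 on which a clone fell depended on the length used. With the length of 1 transcript per gene, the one with the longest coding sequence, the ratios were 0.468, 1.20 and 0.802, with a mean of 0.823 ± 0.367, and clone 3 moved below 1. The order of the clones, 2 above 3 above 1, was the same with both lengths.

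Cd44 was the most abundant of the 7 transcripts, also per length. Cd44 (ENSMUSG00000005087.17, chr2:102811141-102901665, minus strand, 19 exons) had 23068, 32594 and 30901 counts in clones 1, 2 and 3, or 928.5, 1445 and 1223 CPM. The mean was 1199 ± 259 CPM (SD, n = 3 clones), with clone 1 lowest and clone 2 highest. The ratio of clone 2 to clone 1 was 1.56 (95% counting interval 1.53 to 1.58, chi-square 2685, with an adjusted p again too small to be held as a number). Its BCV of 0.169 was near the median of all tested genes, and 19.3% of tested genes had a larger ratio. The gene is known for variable exons in the middle of its transcript, and the table gives 1 count per gene, so its isoforms were not analysed here.

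Vcan followed a different order, lowest in clone 1 and highest in clone 3. Vcan (ENSMUSG00000021614.16, chr13:89655312-89742509, minus strand, 15 exons) had 5750, 6458 and 9008 counts in clones 1, 2 and 3, or 231, 286 and 357 CPM. Its mean was 291.5 ± 62.8 CPM (SD, n = 3 clones). The ratio of clone 3 to clone 1 was 1.54 (95% counting interval 1.49 to 1.59, chi-square 676, adjusted p = 9.62e-146), and the BCV was 0.167. Versican is large, with 3354 residues in its longest annotated coding sequence against 780 for CD44, so levels of both genes are compared per length. Per kb of exon, Vcan was at 0.117, 0.0928 and 0.137 of the level of Cd44 in clones 1, 2 and 3, a mean ratio of 0.115 ± 0.0219.

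The levels of the genes could be ordered with the counts divided by exon length. The mean was 177 ± 38.3 CPM per kb for Cd44, 31.6 ± 15.7 for Has2, 22.6 ± 2.19 for Hyal2 and 20.2 ± 4.34 for Vcan. It was 1.54 ± 0.602 CPM per kb for Hyal1, 0.118 ± 0.0450 for Has1 and 0.0702 ± 0.0248 for Has3. Cd44 lay above all others in every clone, Hyal1 below the 4 abundant genes in every clone, and Has1 and Has3 below Hyal1 in every clone. The ranges of the neighbours Has2 and Hyal2, Hyal2 and Vcan, and Has1 and Has3 overlapped between clones, and their order is not resolved. With the length of 1 transcript per gene, Hyal2 moved to 36.1 CPM per kb, before Has2, and Has1 moved to 0.254, with a range that no longer overlapped that of Has3.

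Against all genes, Cd44 stood near the top. Among the 11347 genes with at least 1 CPM in every clone and a known exon length, 212 (1.87%) had a higher level per kb than Cd44. The corresponding numbers were 1292 (11.4%) for Has2, 1828 (16.1%) for Hyal2, 2045 (18.0%) for Vcan and 9164 (80.8%) for Hyal1. The median of these genes was 5.46 CPM per kb. The synthesis, surface cutting and binding of hyaluronan were thus each represented by a transcript well above that median, whereas the lysosomal hyaluronidase lay below it.

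**Figure D2:**
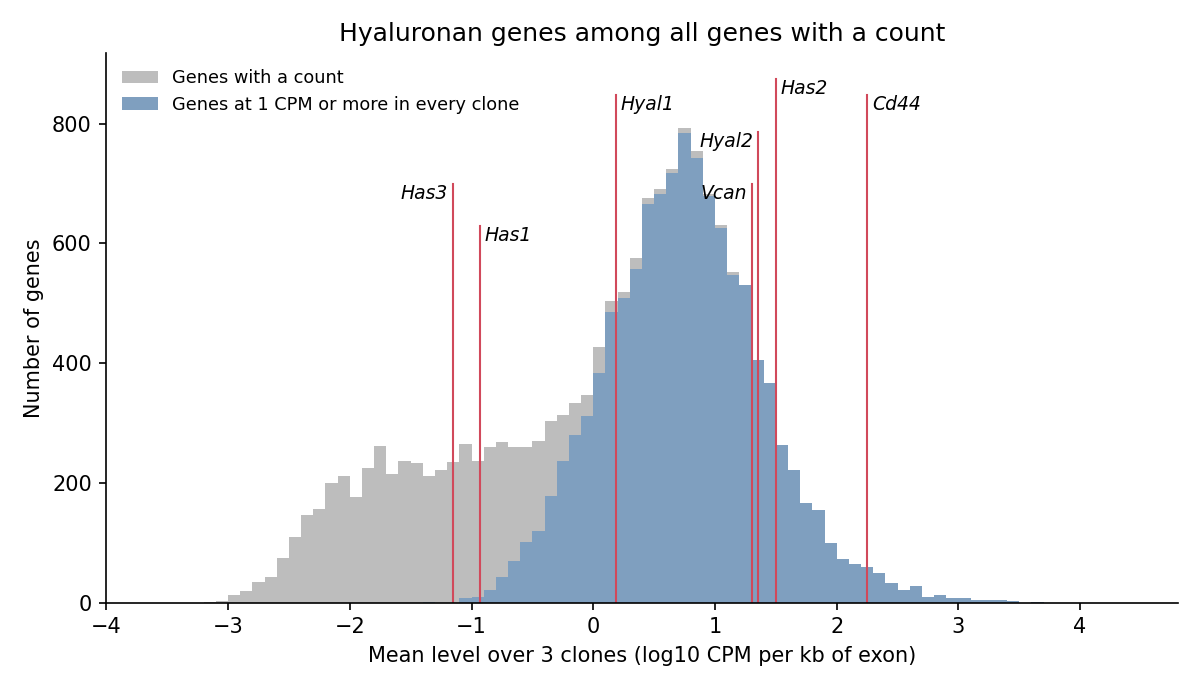
Number of genes (vertical axis) by mean level over the 3 clones in log10 CPM per kb of exon (horizontal axis). Grey bars are genes with a count, blue bars are those with at least 1 CPM in every clone, and red lines mark the 7 hyaluronan genes. Cd44 lies in the upper tail, Has2, Hyal2 and Vcan lie close together above the peak, and Has1 and Has3 lie at the low edge of the blue bars.

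All 5 of the 5 tested genes (Has2, Hyal1, Hyal2, Cd44 and Vcan) were called as differing between clones. Among all 12218 tested genes, 7642 were called (percent called 62.5), so a call by itself is common in these libraries. With a ratio of at least 2-fold in addition, Has2 and Hyal1 were called, against 969 tested genes (7.93%). Without clone 1 or without clone 2 neither reached 2-fold, at 1.50 and 1.97 for Has2 and 1.34 and 1.59 for Hyal1. The median ratio of highest to lowest clone was 1.56 over the 5 genes and 1.24 over all tested genes. Of the 5, Has2, Hyal2, Cd44 and Vcan were lowest in clone 1, where 27.1% of tested genes were called and lowest, and Hyal1 was lowest in clone 2. Without clone 1, Has2, Cd44 and Vcan were still called (3 of 5, background 31.7%), and without clone 2 or clone 3 all 5 were (background 45.4% and 53.0%).

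The remaining hyaluronan genes were taken from 6 lists by role, 51 genes in all. Of these, 50 were in the table, 32 were deep enough to test and 27 of the 32 (84.4%) were called. Over all tested genes 62.5% were called, and this share is the background for the calls in each list below. Among the called genes 16 were highest in clone 2, 6 in clone 1 and 5 in clone 3. The share highest in clone 2 was 59.3% of those called, and over all genes it was 37.5% (2867 of 7642 called, or 23.5% of genes tested, beside 23.8% of genes tested that were called and highest in clone 1). For 5 of the 16 (Tmem2, Hexa, Acan, Msn and Uap1) the difference between clone 2 and the next clone did not pass the test. Over all 32 tested genes of the lists the median ratio was 1.34. Of the 32 tested, 3 (Stab1, Tlr2 and Itih2) were called at 2-fold, beside 969 of all 12218 tested genes (7.93%).

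The enzymes that supply the sugar precursors were expressed and differed modestly, with 5 of 7 called, 0 at 2-fold and a median ratio of 1.22. Ugdh, which oxidizes UDP-glucose to UDP-glucuronic acid, had 1451, 1922 and 1962 counts in clones 1, 2 and 3, or 73.8 ± 13.8 CPM. It was highest in clone 2 and lowest in clone 1 as Has2 was, with a smaller ratio of 1.46 (adjusted p = 6.29e-27). Ugp2, the enzyme before it, had 1180, 891 and 1224 counts and was lowest in clone 2 (ratio 1.23, adjusted p = 1.23e-05). On the N-acetylglucosamine side, Gfpt1 was at 89.6 ± 6.25 CPM and Uap1, which makes UDP-N-acetylglucosamine, at 43.8 ± 4.47 CPM. The calls of these 3 were lost when 1 clone was left out, clone 2 for Ugp2 (adjusted p = 0.725), clone 3 for Gfpt1 (adjusted p = 0.286) and clone 1 for Uap1 (adjusted p = 0.375). Gfpt2 (adjusted p = 0.802) and Gnpnat1 (adjusted p = 0.779) did not pass the test, with 407, 359 and 393 counts for the former and 553, 481 and 562 for the latter. Pgm3, the remaining gene of this list, had 875, 625 and 821 counts and was lowest in clone 2 (ratio 1.27, adjusted p = 6.91e-05), a call lost without that clone (adjusted p = 0.173). Most of the Gnpnat1 exons (81.9%) are also exons of Styx on the opposite strand.

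Of 9 further genes of hyaluronan breakdown, 8 were in the table and 4 were deep enough to test. Hyal4, Hyal5, Hyal6 and Spam1, hyaluronidase genes known mainly from testis and other special tissues, were at 0 in all 3 clones, where a count of 0 allows up to 0.133 CPM in the shallowest library. Hyal3 had 16, 12 and 18 counts and did not pass the test (adjusted p = 0.773). Tmem2, which encodes a transmembrane protein with reported hyaluronidase activity, was at 73.5 ± 11.4 CPM with clone 1 lowest (ratio 1.33, adjusted p = 9.55e-19), and its call was lost without that clone (adjusted p = 0.988). The genes of the exoglycosidases Hexa and Gusb, which remove single sugars, were more abundant per kb than Tmem2, with 112 ± 19.6 CPM per kb for Hexa and 32.8 ± 6.70 for Gusb against 8.62 ± 1.34. Gusb had 3116, 4141 and 3507 counts and was highest in clone 2 (ratio 1.46). Hexa had 6083, 5566 and 4495 counts and was lowest in clone 3 (ratio 1.39), while clones 1 and 2 differed by a ratio of 1.01 once scaled to library size (adjusted p = 0.737).

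The receptors other than Cd44 differed the most of the 6 lists, with a median ratio of 1.99, and all 5 tested were called and highest in clone 2. Stab1, a scavenger receptor known from macrophages and sinusoidal endothelium, had 1494, 4836 and 1366 counts in clones 1, 2 and 3. Clone 2 stood apart at 3.97 times the level of clone 3 (95% counting interval 3.73 to 4.21, chi-square 3640). Without clone 2 the ratio was 1.11 (adjusted p = 0.0126). Tlr2, an innate immune receptor, had 137, 261 and 105 counts (ratio 2.78, adjusted p = 1.16e-22), and without clone 2 its ratio was 1.33 (adjusted p = 0.0615). Clone 2 was also the library with the highest summed level of macrophage markers, 1430 CPM against 312 and 251 CPM, and the part of these cells in the Stab1 and Tlr2 counts was not tested.

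Hmmr, which encodes a hyaluronan-binding protein that also works at the mitotic spindle, had 908, 1639 and 1542 counts, with clone 1 lowest (ratio 1.99, adjusted p = 2.72e-62). Without clone 1 the ratio was 1.19 (adjusted p = 7.26e-06). The 6 cell division markers were lowest in clone 1 as well, and their part in it was not tested. Layn, a C-type lectin that binds hyaluronan, was at 25.2 ± 3.27 CPM and was not called without clone 2 (adjusted p = 0.439). The same held for Tlr4, a receptor of innate immunity, with 150, 192 and 152 counts (adjusted p = 0.00187 between the 3 clones and 0.983 without clone 2). The lymphatic receptor gene Lyve1 had 3, 2 and 2 counts and Stab2, the clearance receptor of liver sinusoids, had 0, 1 and 1.

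Inside the cell CD44 is tied to the actin cortex by ERM proteins, and outside it can be cut by proteases. All 6 genes of this list were called, and 0 reached 2-fold. Among the ERM genes, Msn made up 90.5%, 88.1% and 88.2% of the summed level of Ezr, Rdx and Msn per kb in clones 1, 2 and 3. Msn had 34947, 34715 and 38243 counts, or 235 ± 11.2 CPM per kb, and varied by a ratio of 1.09 (adjusted p = 7.47e-35). Without clone 1 the Msn call was lost (adjusted p = 0.0717). Ezr had 720, 948 and 895 counts and Rdx 1677, 2089 and 2508, both lowest in clone 1 (ratios 1.45 and 1.47), and the Rdx call was lost without that clone (adjusted p = 0.0583). Nf2, which encodes the related protein merlin, had 1307, 1221 and 1584 counts (ratio 1.19, adjusted p = 6.8e-06) and was not called without clone 3 (adjusted p = 0.564). Mmp14, a membrane protease that cuts CD44, had 38954, 29230 and 36821 counts, or 242 ± 22.9 CPM per kb, and was lowest in clone 2 (ratio 1.21, adjusted p = 6.73e-131). Adam10, another CD44 sheddase, was at 36.6 ± 4.85 CPM per kb with clone 1 lowest. Per kb of exon, Msn (222 to 243) and Mmp14 (218 to 263) lay above Cd44 itself, narrowly so for Mmp14 in clone 2. Cd44 ranged from 137 to 213 CPM per kb between the clones.

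Of 16 other matrix partners of hyaluronan, 5 could be tested and 4 were called. Acan, the aggrecan gene, had 1120, 1027 and 1004 counts, or 5.82 ± 0.431 CPM per kb against 20.2 ± 4.34 for Vcan, and its call was lost without clone 3 (adjusted p = 0.861). Aggrecan is best known from cartilage. The 4 cartilage markers summed to 749, 502 and 735.5 CPM, nearly all of it from Col2a1 (649 CPM on average), whereas Col9a1 had 111, 54 and 8 counts and Matn1 had 6, 2 and 0. Their part in the Acan counts was not tested. The other two members of the lectican family were scarce, with 13, 7 and 9 counts for Bcan and 3, 1 and 0 for Ncan. The link proteins that clamp lecticans to hyaluronan were scarce too. Hapln4 led them with 34, 41 and 39 counts and was the tested gene of this list that did not pass (adjusted p = 0.526), and Hapln1 had 17, 8 and 16 counts. Tnfaip6, which transfers heavy chains onto hyaluronan, had 132, 229 and 150 counts (ratio 1.91, adjusted p = 4.79e-10), and without clone 2 its call was lost (ratio 1.12, adjusted p = 0.476). Its partner gene Ptx3 had 562, 927 and 704 counts (ratio 1.82, adjusted p = 3.31e-30). Both had clone 2 at the top and clone 1 at the bottom.

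Itih2, which encodes one of the heavy chains, ran the other way with 907, 393 and 604 counts in clones 1, 2 and 3 (ratio 2.10, adjusted p = 6.77e-37). Between clones 2 and 3 alone the ratio was 1.37 (adjusted p = 8.06e-06). Itih2 was thus highest in clone 1 and lowest in clone 2, as Hyal1 was. For Hyal1 the difference between clones 2 and 3 (ratio 1.34) did not pass the test. Itih1, Ambp and Habp2 were at 0 in all 3 clones.

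The proteases that cleave versican were lowest in clone 2 in all 4 genes called of 5 tested. Adamts1 had 4908, 3305 and 4422 counts, or 173 ± 25.6 CPM (ratio 1.35, adjusted p = 5.78e-38). Adamts5 had 2061, 1104 and 1911 counts (ratio 1.69, adjusted p = 5.99e-46), and without clone 2 the ratio was 1.10 (adjusted p = 0.0105). Adamts4 had 1060, 640 and 842 counts (ratio 1.50, adjusted p = 1.61e-15). Adamts9 had 243, 172 and 329 counts (ratio 1.71, adjusted p = 1.12e-07). Adamts20, with 11, 12 and 12 counts, did not pass (adjusted p = 0.921). Over all genes, 2597 of the 7642 called were lowest in clone 2, or 21.3% of all genes tested. Vcan itself was not lowest in clone 2 but in clone 1.

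**Figure D3:**
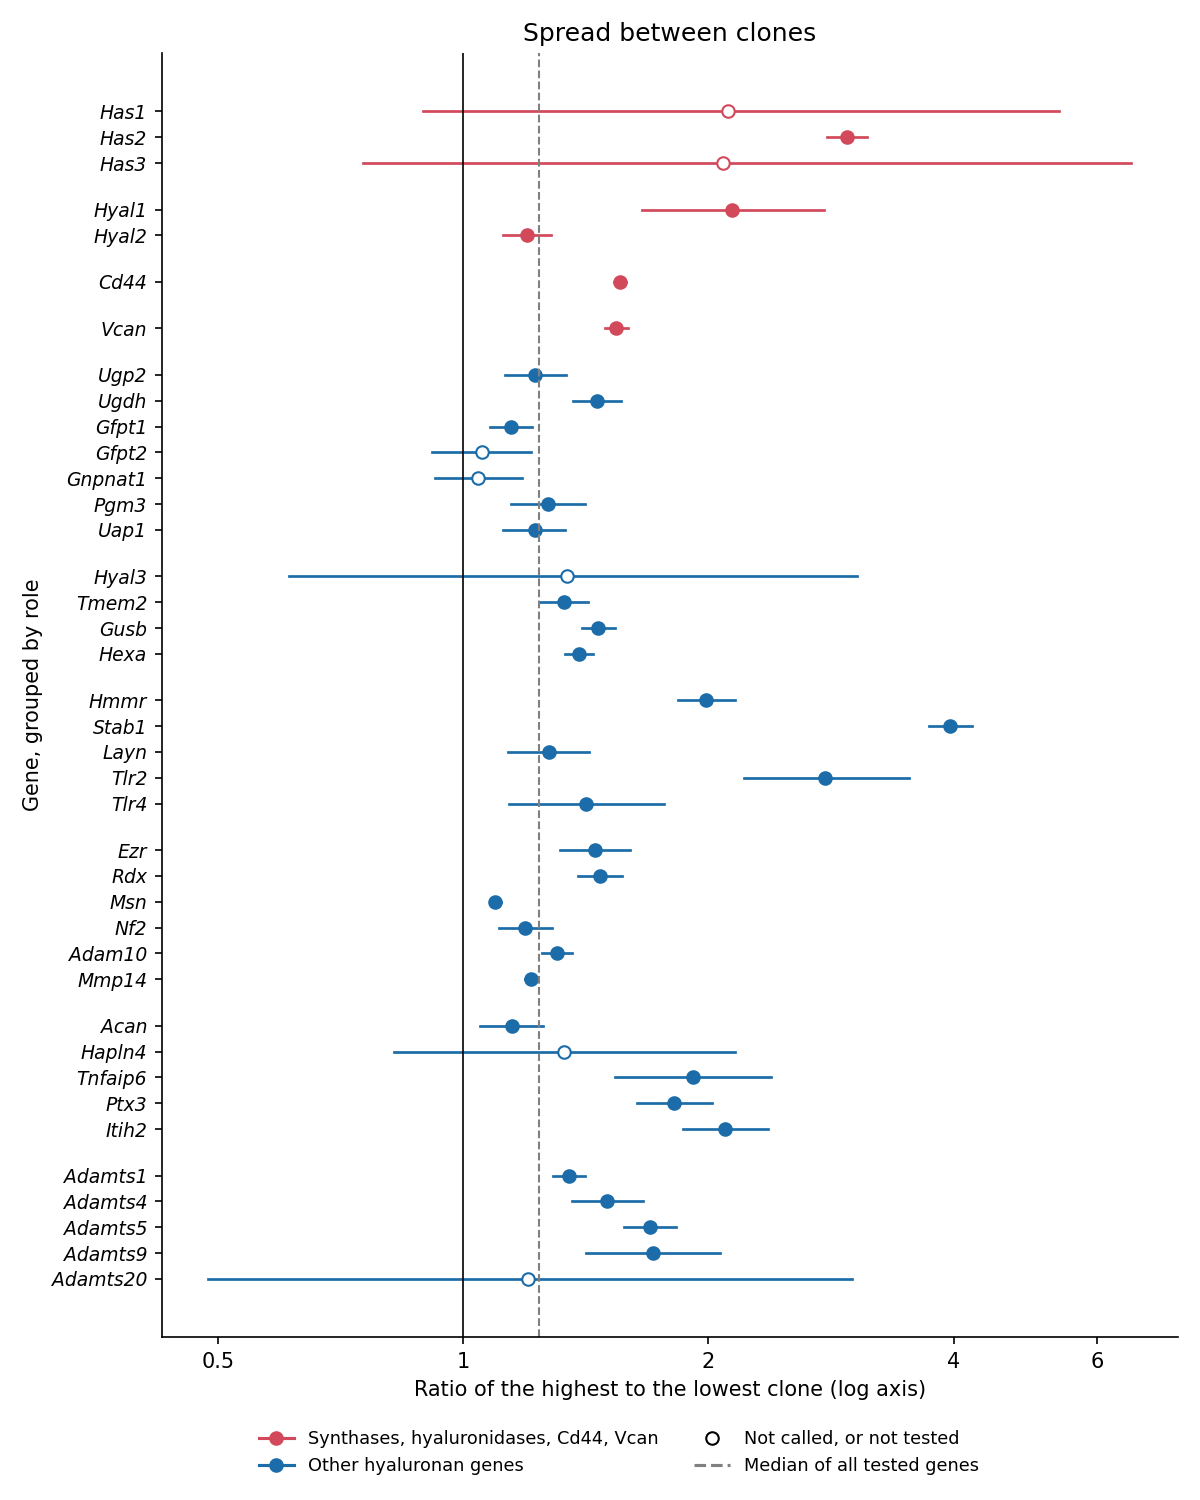
Ratio of the highest to the lowest clone on a log axis for the 7 genes (red) and for the 32 tested genes of the other lists (blue), with bars for the 95% counting interval. Filled circles are genes called as differing between clones, open circles are genes not called or not tested, and the dashed line is the median of all tested genes at 1.24. Stab1 at 3.97 and Has2 at 2.96 lie farthest to the right, and the bars of Has1 and Has3 cross 1.

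**Figure D4:**
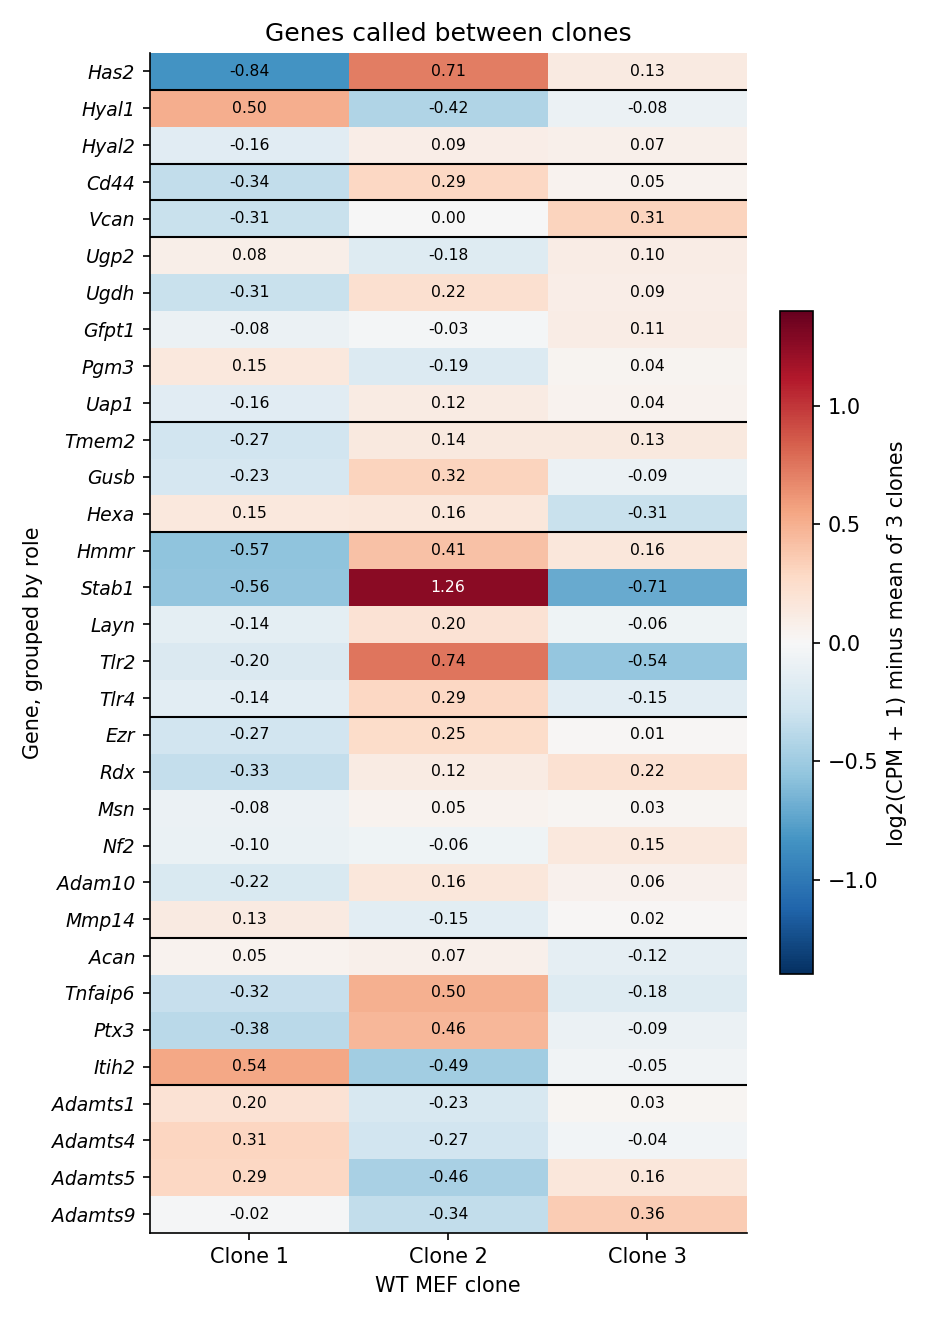
Level of each gene in each clone as log2(CPM + 1) after subtraction of its mean, for the 5 called hyaluronan genes and 27 further genes called between clones, with clones in columns and genes in rows, grouped by role. Red is above and blue is below the mean. Has2 is at -0.84 in clone 1 and 0.71 in clone 2, Hyal1 is at 0.50 and -0.42, and Stab1 reaches 1.26 in clone 2.

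On the log2(CPM + 1) scale that the plot of deviations uses, Has2 spanned 1.55 between clones, Hyal1 0.93, Cd44 0.64, Vcan 0.62 and Hyal2 0.26. Clones 1 and 2 were the extremes for Has2, Hyal1 and Cd44, with Hyal1 alone of these above the mean in clone 1. For Hyal2 clone 1 was lowest, and clones 2 and 3 were at 0.09 and 0.07. Vcan was the exception, with clone 2 at the mean of the 3 clones and clone 3 above it by 0.31.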

How the data were processed

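RNA-seq of 3 WT MEF libraries, 1 for each clone, was analysed from 1 table of raw counts per gene symbol that the authors deposited, with no normalization. Reads of 86 nt were aligned by the authors with TopHat 2.0.0 (on Bowtie 0.12.7, with Samtools 0.1.16), with up to 2 mismatches and 5 multi-hits, and counted with HTSeq. The study's methods name mm10 and the submitters' processing notes name mm9. The HTSeq version, annotation and strand setting are not given in the sources used here, so overlapping genes and reads with several positions can shift a count. Total counts were between 22594316 and 25261357 per library.

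CPM were computed with TMM-scaled library sizes (edgeR 4.0.16, R 4.3.3). Genes that reached 10 counts in each clone were compared between clones by a chi-square test (Pearson, 2 degrees of freedom, scipy 1.17.1) against these library sizes. They were called at a Benjamini-Hochberg adjusted p under 0.05. The procedure was tested on simulated counts with counting noise alone and some genes changed 2-fold in 1 clone. That run had no other spread between clones, so it does not show how the test behaves with such spread. The p-values measure differences between libraries. BCV came from edgeR with an intercept only. Shares have 95% Wilson intervals and ratios of clones exact binomial ones. Exon lengths, transcripts and positions were taken from GENCODE M21 (GRCm38), and 99.76% of the symbols in the table were matched directly or through RefSeq synonyms. Translated coding sequences were aligned with Biopython 1.88. Alternatives were DESeq2 1.42.0 size factors, total counts, other count minimums, another gene length, a pseudocount of 0.5 in place of 1, and leaving out each clone. The ratio of synthases to hyaluronidases was added after seeing the data. Genes were named as the 7 hyaluronan genes, genes of the 6 lists that were deep enough to test (others by their counts), and the 2 genes nearest in pattern to each hyaluronan gene that averaged 10 CPM or more. Nat6 was named after its values were seen. The genes and lists were chosen with earlier results of these data known. Cemip and the macrophage marker Emr1 were not analysed here, nor were the other assays of the study. 2 genes were left out of the lists and of all counts over them, and are not reported here. List genes too low to test are given by example.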

Additional observations from a re-analysis of the deposited data

How the results depend on the processing

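All 5 called hyaluronan genes and all 27 called genes of the other lists were also called with DESeq2 size factors, with total counts and with both lower count minimums. Leaving out 1 clone at a time gave 3 to 5 calls among the former and 21 to 23 among the latter, with fewer calls over all genes too (31.7% to 53.0% of genes tested). Hyal1 and Hyal2 lost their calls without clone 1, as did Uap1, Tmem2, Rdx and Msn. Ugp2, Pgm3, Layn, Tlr2, Tlr4 and Tnfaip6 lost theirs without clone 2, and Gfpt1, Hexa, Nf2 and Acan without clone 3. Each of these fits has 1 sample fewer, and no other cause was tested. With DESeq2 size factors and with total counts, no direction reversed among the called genes. The other settings left the scaled levels of the clones unchanged, so they could not show a reversal. With a minimum of 1 count in every clone, Has1 (adjusted p = 0.227) and Has3 (adjusted p = 0.366) did not pass. Gene length moved several values. The ratio of Vcan to Cd44 was 0.246 when not divided by length. With the length of 1 transcript per gene, the synthase to hyaluronidase ratio was 0.823 in place of 1.29, and Has1 was at 0.254, Hyal2 at 36.1, Gusb at 55.6, Msn at 387 and Mmp14 at 555 CPM per kb. Under the lengths and left-out clones tried, the share of Has2 was 98.8 to 99.4% and that of Hyal2 91.3 to 94.8%, and the median BCV of the 5 genes was 0.128 to 0.197. No paired analysis was possible because all samples belong to 1 group. With 1 library per clone, depth limits Has1, Has3 and Hyal3, whose counts of 6 to 18 leave counting intervals of the ratio that include 1.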

Other observations

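The genes nearest in pattern were looked up for the 4 abundant hyaluronan genes, among 8389 genes that averaged 10 CPM or more, by the largest difference in any clone between the centred log2(CPM + 1) values of both genes. With 3 libraries such a likeness is weak, and it is given as a description. No gene came within 0.1 of Has2 in every clone, and the nearest were Kntc1 with 433, 1080 and 895 counts in clones 1, 2 and 3 (largest difference 0.10) and Zdbf2 with 167, 536 and 323 counts (0.13). For Hyal2, 1592 genes were within 0.1, led by Tada1 and Golt1b. For Cd44 there were 218, led by Banp with 457, 654 and 612 counts and Iqgap3 with 736, 1037 and 992. For Vcan there were 53, led by Cbl with 269, 310 and 434 counts and Clcn5 with 636, 724 and 1021.

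The neighbours of the hyaluronidase genes on chromosome 9 did not share 1 pattern. On the Hyal2 side, Rassf1 had 1912, 1969 and 2137 counts in clones 1, 2 and 3 (chi-square test, adjusted p = 0.000545) and Tusc2 had 216, 204 and 246 (adjusted p = 0.525). Beyond Hyal3, Ifrd2 had 371, 511 and 576 counts, lowest in clone 1 (adjusted p = 8.32e-11). Among the 7 genes from Rassf1 to Ifrd2, Hyal1 and Nat6, which share exons, were the ones highest in clone 1. These neighbours were chosen after their values were seen.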
